A study of Mus musculus with 4 samples.

Results

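The spindle, kinetochore and cytokinesis genes are 50 genes, picked by name, whose products carry out chromosome segregation and cell division. Of these, 49 had a probe set with a matching gene symbol, out of 19505 genes on the array, and each of the 49 had exactly 1 probe set; Ccnb1 was not analysed here. They were measured in muscle progenitor cells of C57Bl/6 mice on Affymetrix whole-transcript arrays. The 2 groups were cells from mice aged 2 years (aged, 2 arrays) and cells from mice aged 5 weeks (young, 2 arrays); no mutation, transgene or drug is named for either group. In both, muscle was digested with collagenase and cells positive for the integrins CD29 and ITGA7 were sorted by flow cytometry. The input of each array was 1 ng of RNA, turned into labelled cDNA. Whether 2 arrays of equal age stand for different animals, for pools or for 1 preparation is not stated in the labels, so a p-value here reflects the spread among these 4 samples alone, which may be technical.

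When a cell enters mitosis, microtubules form the spindle and attach to each chromosome at its kinetochore, a protein complex built on the centromere. Kinesins, motor proteins that move along or take apart microtubules, shape the spindle and align the chromosomes. A checkpoint delays separation until attachment is complete; the anaphase-promoting complex then frees the sister chromatids, and the cytokinesis proteins cleave the cell. Most of these genes are transcribed mainly in late S, G2 and M phase, and satellite cells, the stem cells of muscle, are largely out of the cycle in resting adult muscle and divide in growing or injured muscle.

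The mitotic genes were lower in aged than in young cells as a group, with all but Pttg1 and Kifc1 below zero (and Kifc1 too after a second quantile normalization). Levels are the deposited log2 values, and differences are aged minus young in those units; a stretched variant of the normalization is possible, so differences are not turned into folds. Of the 49 measured genes, 47 had a negative difference (50.2% of all probe sets) and 35 were lower by at least 1 log2 unit, a size that 4.01% of all 19572 tested probe sets reached. The median difference was -1.38, against -0.0013 for all tested probe sets. The limma test called 32 genes lower and 0 higher at an unadjusted p under 0.05, where 3.99% of all probe sets were called lower and 3.36% higher. Both aged arrays lay below both young arrays for 38 genes, against 18.4% of all probe sets, and above them for 1, against 18.2%. No gene passed the Benjamini-Hochberg threshold of 0.05 over all probe sets (0% of the background); the adjusted p of the listed genes ran from 0.386 to 0.993. All statements below that a gene was called therefore rest on the unadjusted p of limma.

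The largest differences came from Fam83d (-3.06), Prc1 (-2.80), Mki67 (-2.60), Cdc20 (-2.58) and Nuf2 (-2.42), which act in different steps of division. Among all 19572 probe sets ordered from the most negative difference, Fam83d was number 4, Prc1 number 11, Mki67 number 19 and Cdc20 number 20. At the other end, Pttg1, Kifc1, Sgo2a, Incenp, Espl1 and Spc24 differed by less than 0.5 in either direction, as did Kif14 (-0.43).

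**Figure D1:**
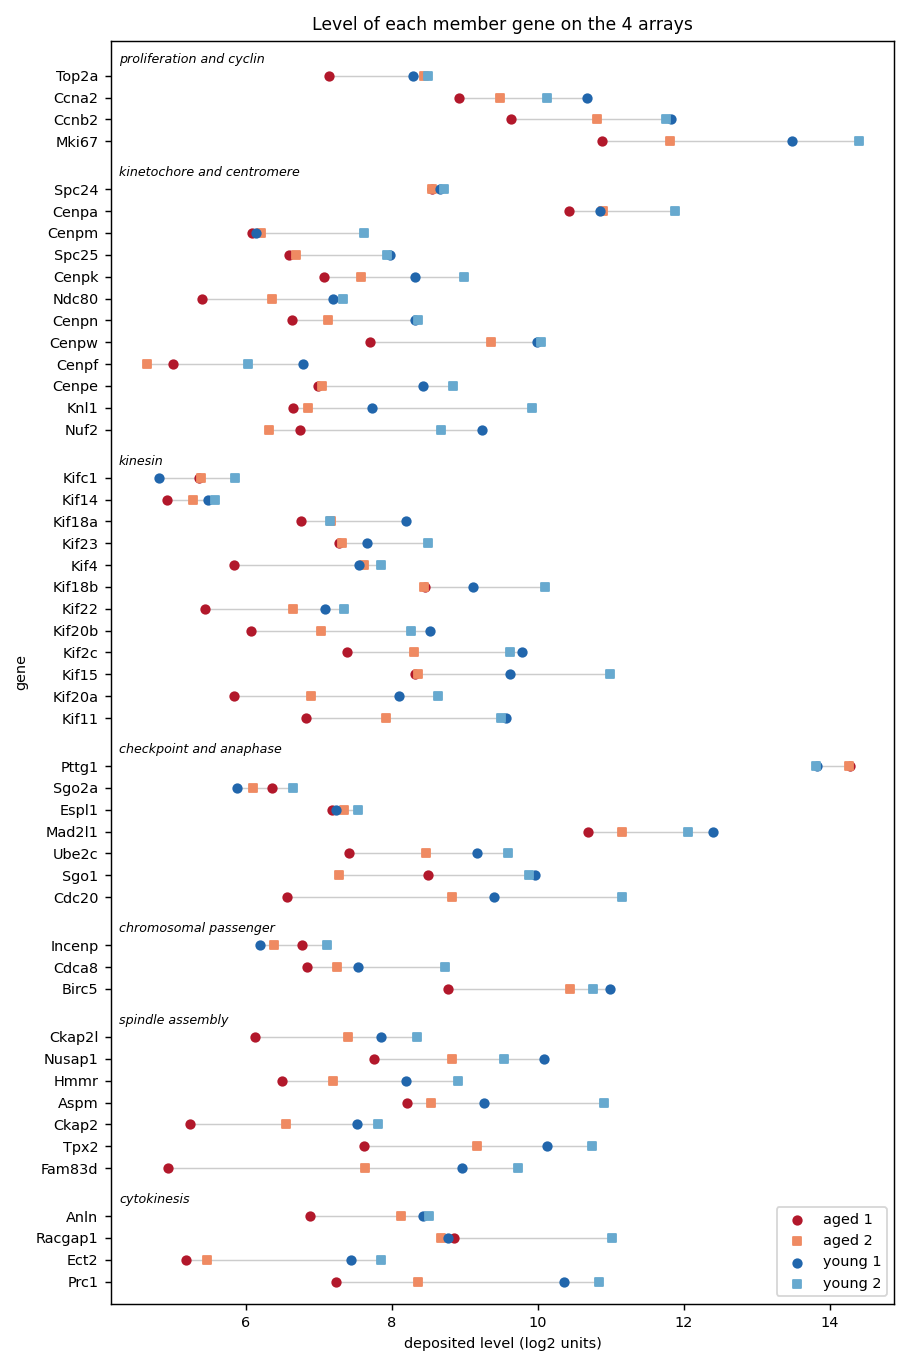
Deposited log2 level (x axis) of each of the 49 genes (y axis, grouped by role) on aged array 1 and 2 (red and orange) and young array 1 and 2 (dark and light blue). For 38 genes both aged points lie left of both young points, and aged array 1 holds the lowest point of 39 genes.

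**Figure D2:**
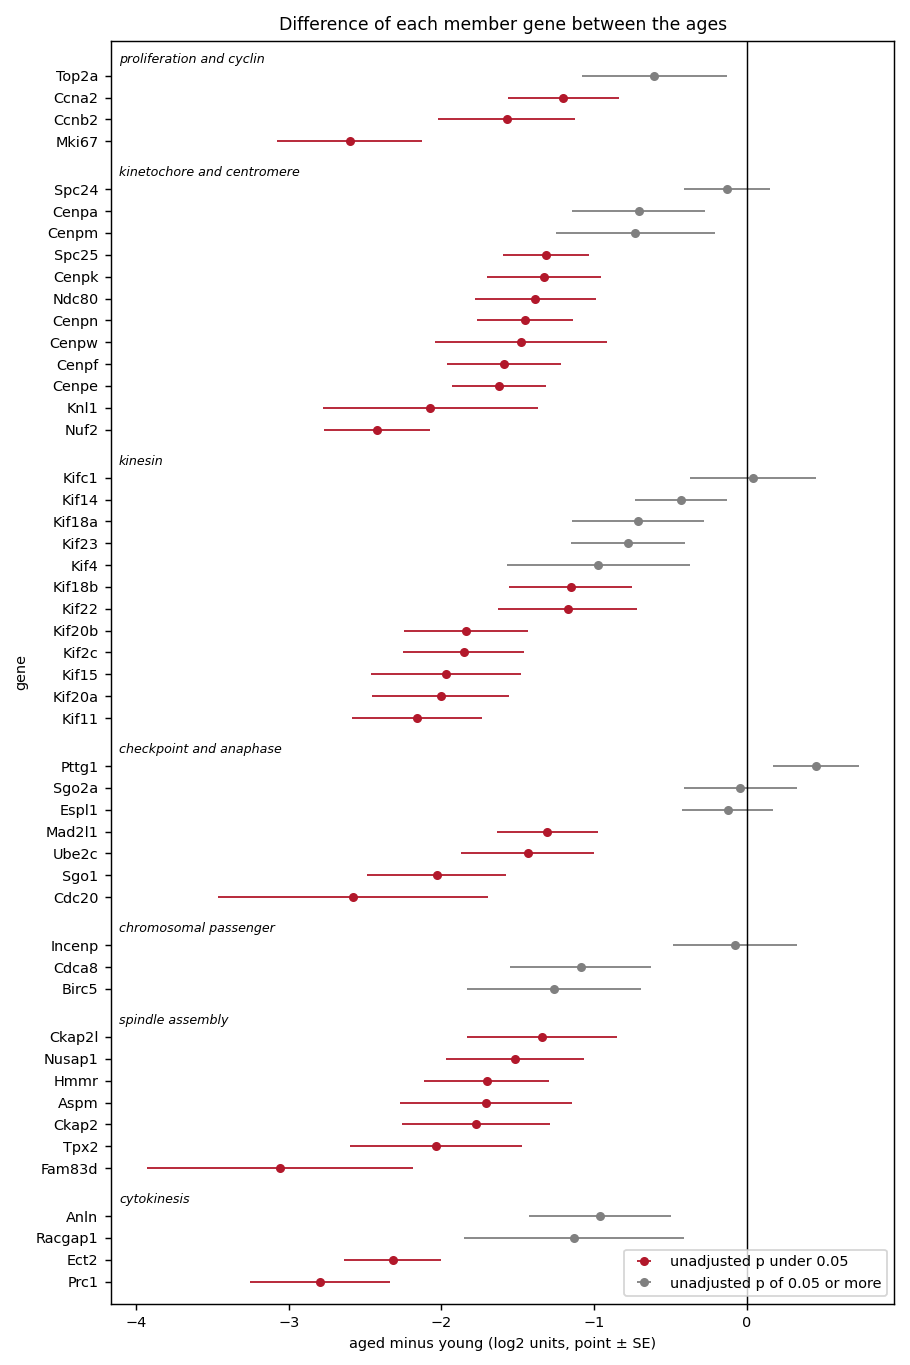
Aged minus young difference in log2 units (x axis; points are limma estimates, bars 1 SE) for the 49 genes (y axis, grouped by role). The 32 genes called at an unadjusted p under 0.05 are in red, all left of zero; the 17 others are in grey.

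The 4 arrays took different positions within this pattern. After each gene was centred on its mean over the 4 arrays, the median over the 49 genes was -1.01 in aged array 1, -0.30 in aged array 2, 0.50 in young array 1 and 0.85 in young array 2. Aged array 1 was the lowest of the arrays for 39 genes, and young array 2 was the highest for 35. A refit that leaves out an array keeps a single array of that age. Calls kept, lost or gained in such refits, here and below, thus lean on the spread that limma borrows from other genes. Without aged replicate 1 the count of 32 called genes was 20, against 2.72% of all probe sets, and the median difference was -1.07.

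**Figure D3:**
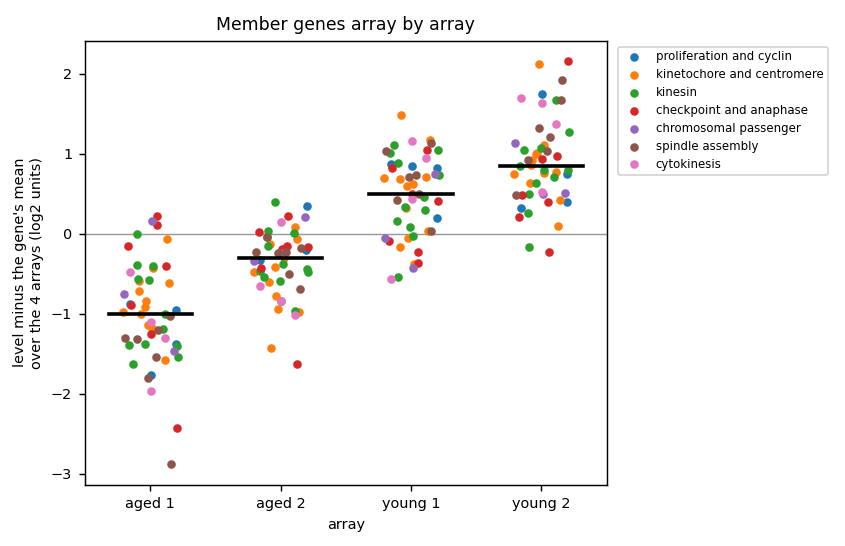
Level of each gene minus its own mean over the 4 arrays (y axis, log2 units) in each array (x axis); points are the 49 genes coloured by role, and black bars are medians. The aged medians are -1.01 and -0.30 and the young medians 0.50 and 0.85.

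The promoters of these genes were read from RefSeq for a pair of sequence elements known from G2/M genes. The CHR element (TTTGAA or TTCGAA) is bound by the MuvB complexes, which repress such genes in resting cells and activate them in dividing cells, and the CCAAT box (CCAAT) is bound by the factor NF-Y. Windows of 300 bases, 250 before and 50 after an annotated start, were found for 44 of the 49 genes (49 windows; build GRCm38.p6). The windows of Ect2 and of Prc1 overlap each other within the gene and so count shared letters again. For 7 genes (Kif2c, Sgo1, Kif14, Pttg1, Aspm, Cenpm and Ect2) every window read starts more than 250 bases inside the annotated gene, so the outermost start was not read. Both strands were searched. A CHR element was present in 75.5% of the windows of listed genes and in 19.2% of all 32851 promoter windows, and a CCAAT box in 75.5% and 37.4%. Both were present in 63.3% and 7.52%. Counted by gene, with any window, the shares were 79.5% and 21.7% for the CHR element, 72.7% and 41.1% for the CCAAT box and 65.9% and 8.61% for both. A CHR element beginning within 50 bases of the start, a distance chosen after the positions were seen, was present in 65.3% and 5.31%. The share with a CHR element was 78.8% among the 33 windows of called genes and 68.8% among the 16 windows of genes not called, a difference that was not tested. The genes were picked by name as genes of division, so their shares against all promoter windows describe the list and not the age difference. These matches are descriptions of the letters and not of binding.

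The stretches below are the 120 bases before the start, 5′ to 3′ on the gene's strand, with CHR and CCAAT letters (either strand) in capitals. They show the gene with the most negative difference in each role group, among genes with a window, whether or not it held a match (Mki67, Nuf2, Kif11, Cdc20, Birc5, Fam83d and Prc1). Espl1, nearly level between the ages, was added after its value was seen because it holds both elements. The annotation holds 2 starts for Prc1, and the downstream one is shown.
Mki67, chr7:135716380-135716499, minus strand: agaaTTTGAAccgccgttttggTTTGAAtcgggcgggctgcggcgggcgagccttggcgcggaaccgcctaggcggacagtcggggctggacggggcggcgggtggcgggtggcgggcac
Nuf2, chr1:169531465-169531584, minus strand: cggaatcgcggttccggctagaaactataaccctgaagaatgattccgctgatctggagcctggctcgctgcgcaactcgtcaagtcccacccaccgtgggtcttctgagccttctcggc
Kif11, chr19:37376262-37376381, plus strand: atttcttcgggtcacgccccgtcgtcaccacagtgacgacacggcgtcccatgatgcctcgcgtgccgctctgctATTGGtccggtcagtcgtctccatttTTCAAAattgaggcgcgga
Cdc20, chr4:118437344-118437463, minus strand: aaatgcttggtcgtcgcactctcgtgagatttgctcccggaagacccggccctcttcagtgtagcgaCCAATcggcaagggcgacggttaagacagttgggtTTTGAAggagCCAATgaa
Birc5, chr11:117849117-117849236, plus strand: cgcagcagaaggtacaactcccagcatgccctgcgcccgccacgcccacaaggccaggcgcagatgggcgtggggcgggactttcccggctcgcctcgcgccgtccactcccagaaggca
Fam83d, chr2:158767979-158768098, plus strand: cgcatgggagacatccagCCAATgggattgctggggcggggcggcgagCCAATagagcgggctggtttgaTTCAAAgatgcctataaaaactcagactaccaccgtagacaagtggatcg
Prc1, chr7:80294356-80294475, plus strand: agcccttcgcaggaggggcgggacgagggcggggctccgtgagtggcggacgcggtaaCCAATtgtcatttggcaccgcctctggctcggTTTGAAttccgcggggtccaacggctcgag
Espl1, chr15:102296173-102296292, plus strand: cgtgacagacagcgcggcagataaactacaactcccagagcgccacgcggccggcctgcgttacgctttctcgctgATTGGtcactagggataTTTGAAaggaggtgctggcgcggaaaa

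In 5 of these stretches a CCAAT box lay upstream of the CHR element. The nearest such box began further upstream by 22 bases in Fam83d, 32 in Prc1, 35 in Cdc20, 26 in Kif11 and 17 in Espl1. The Mki67 stretch held CHR elements only, with CCAAT boxes further upstream in its window, and the Nuf2 and Birc5 windows held neither element. Over all windows of listed genes with both elements, a CCAAT box began upstream of a CHR element in 29 of 31, against 1318 of 2472 (53.3%) among all promoter windows. Any box upstream of any element counted, so a window with more matches met this rule more readily. The sets were not matched for the number of matches, and overlapping windows of Ect2 and Prc1 were counted separately. The contrast was not tested and does not show a fixed arrangement. Windows with no match to either element belonged to called genes (Nuf2, Nusap1 and Mad2l1) and to genes not called (Birc5, Kif18a and Pttg1).

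**Figure D4:**
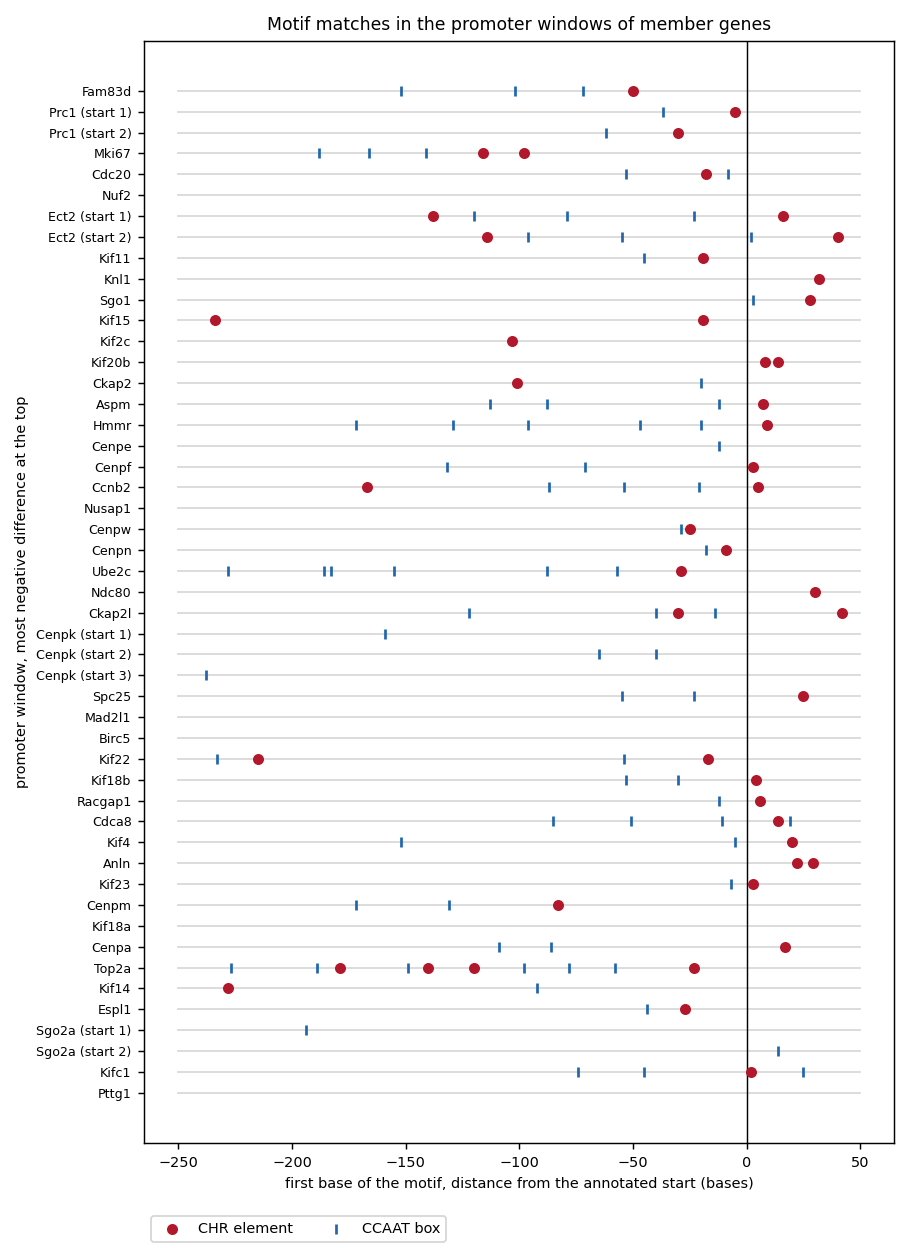
Distance of each CHR element (red points) and CCAAT box (blue ticks) from the annotated start (x axis, bases; negative is upstream) in the 49 promoter windows of 44 genes (y axis, most negative aged minus young difference at the top). CHR elements gather around the start, and the windows of Nuf2, Nusap1, Mad2l1, Birc5, Kif18a and Pttg1 hold no match.

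The proliferation marker and the cyclins were lower in aged cells, while Top2a overlapped between the ages. In this group 3 of 4 measured genes were called, with a median difference of -1.39. Mki67, whose product coats mitotic chromosomes and marks cycling cells, was read at 10.87 and 11.81 (aged) against 13.48 and 14.39 (young). The groups were separated by 1.68 log2 units, more than the gap within either age, and the difference was -2.60 ± 0.48 (SE; limma unadjusted p of 0.00173, adjusted p of 0.452). Ccnb2, encoding a B-type cyclin that activates Cdk1 for entry into mitosis, was read at 9.63 and 10.81 (aged) against 11.82 and 11.76 (young). Its difference was -1.57 ± 0.45 (SE), and -0.98 without aged replicate 1. Ccna2, the S and G2 phase cyclin A gene, was read at 8.92 and 9.48 (aged) against 10.68 and 10.13 (young), a difference of -1.20 ± 0.36 (SE) that was no longer called without aged replicate 1 (-0.92, unadjusted p of 0.0906) or young replicate 1 (-0.93, unadjusted p of 0.0797). Top2a, encoding the topoisomerase that untangles chromosomes, was read at 7.14 and 8.43 (aged) against 8.29 and 8.49 (young). Aged array 2 lay between the young arrays, and the difference of -0.60 ± 0.48 (SE; unadjusted p of 0.253) was 0.043 without aged replicate 1 and -1.25 (called) without aged replicate 2.

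Kinetochore and centromere genes were lower in aged cells, with 9 of 12 called and a median difference of -1.42. Nuf2, a subunit of the NDC80 complex that grips spindle microtubules, was read at 6.74 and 6.31 (aged) against 9.23 and 8.67 (young). The ages were separated by 1.93 log2 units, with a difference of -2.42 ± 0.35 (SE; unadjusted p of 0.000512, adjusted p of 0.386). The other 3 subunits of this complex did not move by equal amounts: Spc25 differed by -1.31 ± 0.28 (SE), Ndc80 by -1.38 ± 0.40 and Spc24 by -0.13 ± 0.28. Spc24 was read at 8.55 in both aged arrays and at 8.65 and 8.71 in young arrays, and so was nearly level while its direct partner Spc25 was read at 6.58 and 6.69 (aged) against 7.98 and 7.93 (young). The difference between subunits was not tested. Ndc80 was no longer called without aged replicate 1 (-0.91, unadjusted p of 0.0653).

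Knl1, the scaffold that recruits checkpoint proteins to the kinetochore, was read at 6.65 and 6.85 (aged) against 7.73 and 9.92 (young). The young arrays were further apart than the ages at their closest, and the difference of -2.07 ± 0.70 (SE) was not called without aged replicate 1 (-1.97), aged replicate 2 (-2.17) or young replicate 2 (-0.98); it was -3.17 without young replicate 1. Cenpe, a kinesin that carries chromosomes to the spindle equator, was read at 6.98 and 7.04 (aged) against 8.43 and 8.84 (young), a difference of -1.62 ± 0.31 (SE; unadjusted p of 0.00204). Cenpf, a large kinetochore protein that accumulates in G2, was read at 5.00 and 4.64 (aged) against 6.78 and 6.03 (young), a difference of -1.59 ± 0.37 (SE). Both genes were called with each array left out in turn.

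Genes of the inner, centromere-bound part of the kinetochore were split. Cenpn differed by -1.45 ± 0.32 (SE) and was called in every such refit, while Cenpk (-1.33 ± 0.37) was not called without aged replicate 1 (-1.08) or young replicate 2 (-0.99). Cenpw differed by -1.48 ± 0.56; it was called with aged replicate 2 left out (-2.31) and not with any other array left out (-0.65 to -1.51). Cenpa, the histone H3 variant that marks the centromere, was read at 10.42 and 10.89 (aged) against 10.85 and 11.88 (young), so the ages overlapped (-0.71 ± 0.43, unadjusted p of 0.155), although it was called without young replicate 1 (-1.22). Cenpm also overlapped (-0.73 ± 0.52); its difference rested on young array 2 and was 0.012 without young replicate 2 and -1.47, called, without young replicate 1. Over the kinetochore group 9 called genes became 5 without aged replicate 1.

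Mitotic kinesins were lower in aged cells, with 7 of 12 called and a median difference of -1.16. Kif11, the motor that pushes the spindle poles apart, was read at 6.83 and 7.91 (aged) against 9.57 and 9.50 (young), a difference of -2.16 ± 0.43 (SE; unadjusted p of 0.00250, adjusted p of 0.452). Both aged arrays were at least 1.58 log2 units below both young arrays. Kif15, which can share the work of Kif11, was read at 8.31 and 8.36 (aged) against 9.61 and 10.99 (young), a difference of -1.97 ± 0.49 (SE) that was -1.28 without young replicate 2. Kif2c, which takes apart microtubules at wrongly attached kinetochores, was read at 7.38 and 8.31 (aged) against 9.78 and 9.62 (young) (-1.86 ± 0.39, SE). The related motors of the late spindle, Kif20a and Kif20b, were close in size: Kif20a was read at 5.83 and 6.89 (aged) against 8.10 and 8.63 (young) (-2.00 ± 0.45), and Kif20b differed by -1.84 ± 0.40. These 5 kinesins were called with each array left out in turn.

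The other kinesins differed less. Kif22 (-1.17 ± 0.46), a chromosome-arm motor, was called in the full fit and, of the refits, only in that without aged replicate 2 (-1.78); it was -0.57 without aged replicate 1. Kif18b (-1.15 ± 0.40), a regulator of astral microtubules, was called, of the refits, only in that without young replicate 1 (-1.65), and was -0.66 without young replicate 2. Kif4 (-0.97 ± 0.60), Kif23 (-0.78 ± 0.37), Kif18a (-0.71 ± 0.43) and Kif14 (-0.43 ± 0.30) were not called in the full fit. Of these, Kif4 was called without aged replicate 2 (-1.86), Kif23 without young replicate 1 (-1.19) and Kif18a without young replicate 2 (-1.24). Kifc1, a motor that clusters spindle poles, was read at 5.36 and 5.39 (aged) against 4.81 and 5.85 (young). Both aged arrays lay between the young arrays (0.04 ± 0.41, unadjusted p of 0.927), the sign turned with a second quantile normalization (-0.015) and without young replicate 1 (-0.48), and Kifc1 and Kif14 lay under the intron control median on all 4 arrays.

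Checkpoint and anaphase genes had 4 of 7 called lower and a median of -1.31. Espl1 and Sgo2a were nearly level, and Pttg1 was higher in both aged arrays but not called. Cdc20, the activator of the anaphase-promoting complex and the target of the checkpoint, was read at 6.57 and 8.83 (aged) against 9.40 and 11.15 (young). The groups did not overlap, but both ages spread widely; the difference of -2.58 ± 0.88 (SE; unadjusted p of 0.0279, adjusted p of 0.605) was not called without aged replicate 1 (-1.45) or young replicate 2 (-1.70). Ube2c, the ubiquitin-conjugating enzyme of that complex, was read at 7.41 and 8.47 (aged) against 9.16 and 9.59 (young), a difference of -1.44 ± 0.44 (SE) that was not called without aged replicate 1 (-0.91) or young replicate 2 (-1.22). Mad2l1, encoding the checkpoint protein that holds Cdc20 inactive, was read at 10.69 and 11.16 (aged) against 12.40 and 12.06 (young) (-1.31 ± 0.33, SE) and was called in every refit.

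The pairs of this group that act together did not move by equal amounts. Sgo1, a shugoshin that protects cohesion at centromeres, was read at 8.50 and 7.28 (aged) against 9.96 and 9.88 (young) (-2.03 ± 0.46, SE; unadjusted p of 0.00466), and was the gene in which aged array 2 lay furthest below aged array 1. Its relative Sgo2a was read at 6.35 and 6.09 (aged) against 5.88 and 6.65 (young) (-0.04 ± 0.37), with the aged values between the young ones. Sgo2a lay under the intron control median on 3 arrays, both aged arrays among them, so its comparison with Sgo1 is uncertain. Espl1, encoding separase, the protease that cuts cohesin, was read at 7.18 and 7.35 (aged) against 7.24 and 7.53 (young) (-0.12 ± 0.30). Pttg1, encoding securin, the inhibitor of separase, was read at 14.27 and 14.26 (aged) against 13.82 and 13.81 (young). It was the 1 listed gene with both aged arrays above both young arrays, and its replicates differed by far less than the ages, but the moderated test, which borrows the spread of other genes, did not call the difference of 0.45 ± 0.28 (SE; unadjusted p of 0.160, adjusted p of 0.795). The count of 4 called genes was 2 when either aged replicate 1 or young replicate 2 was left out. The signs of Sgo2a and Espl1 were not stable, turning to 0.34 and 0.024 without young replicate 2.

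The chromosomal passenger complex, which corrects faulty attachments and later marks the division plane, had 0 of 3 genes called in limma, with a median of -1.09. Birc5, encoding survivin, was read at 8.77 and 10.44 (aged) against 10.98 and 10.75 (young) (-1.26 ± 0.57, SE; unadjusted p of 0.0704), and was called at -2.10 without aged replicate 2. Cdca8, encoding borealin, was read at 6.84 and 7.24 (aged) against 7.54 and 8.72 (young) (-1.09 ± 0.46; unadjusted p of 0.0580), and was called at -1.68 without young replicate 1. Both of these genes had both aged arrays below both young arrays. Incenp, the scaffold of the complex, was read at 6.77 and 6.38 (aged) against 6.19 and 7.12 (young), so the ages overlapped (-0.08 ± 0.41), and leaving out aged replicate 2 (0.12) or young replicate 2 (0.39) turned its sign. The kinase of the complex, Aurkb, which is not among the 50 genes, differed by -2.32 ± 0.50 (SE; unadjusted p of 0.00379); it is given because the other subunits are, and was chosen after its value was seen.

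Spindle assembly genes were the group in which every measured gene was called lower, 7 of 7, with a median of -1.71; 4 were called without aged replicate 1. Fam83d, which brings a kinase to the spindle, was read at 4.93 and 7.63 (aged) against 8.95 and 9.73 (young). The gap between the aged arrays was the widest among the 49 genes, and the difference of -3.06 ± 0.87 (SE; unadjusted p of 0.0133, adjusted p of 0.545) was -1.71 without aged replicate 1. Tpx2, which starts microtubule growth around chromosomes and activates Aurora A, was read at 7.62 and 9.17 (aged) against 10.13 and 10.74 (young) (-2.04 ± 0.56, SE), and -1.26 without aged replicate 1. Ckap2, a microtubule-associated protein, was read at 5.24 and 6.55 (aged) against 7.52 and 7.81 (young) (-1.77 ± 0.48), and -1.12 without aged replicate 1.

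Aspm, a spindle pole protein known from brain growth, was read at 8.20 and 8.54 (aged) against 9.26 and 10.90 (young). The young arrays were further apart than the ages at their closest, and the difference of -1.71 ± 0.56 (SE) was not called without aged replicate 1 (-1.54), aged replicate 2 (-1.87) or young replicate 2 (-0.89). Ckap2l, the smallest difference of the group, was read at 6.12 and 7.39 (aged) against 7.85 and 8.35 (young) (-1.34 ± 0.49), and was not called without aged replicate 1 (-0.70) or young replicate 2 (-1.09). Hmmr, a spindle protein that also binds hyaluronan, differed by -1.70 ± 0.41 and was called in every refit. Nusap1, which bundles microtubules near chromosomes, differed by -1.52 ± 0.45 and was not called without aged replicate 1 (-0.98) or young replicate 1 (-1.24).

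Of the cytokinesis genes 2 of 4 were called, with a median of -1.73. Prc1, which bundles the antiparallel microtubules of the central spindle, was read at 7.23 and 8.36 (aged) against 10.35 and 10.83 (young). The ages were separated by 1.99 log2 units, the widest gap between the ages among the 49 genes, and the difference was -2.80 ± 0.46 (SE; unadjusted p of 0.000975, adjusted p of 0.415). Ect2, the exchange factor that activates RhoA at the division plane, was read at 5.18 and 5.47 (aged) against 7.44 and 7.85 (young) (-2.32 ± 0.32, SE; unadjusted p of 0.000389, adjusted p of 0.386). Both were called with each array left out in turn. Racgap1, the partner of Kif23 in centralspindlin and the docking site of Ect2, was read at 8.85 and 8.67 (aged) against 8.77 and 11.02 (young). Young array 1 lay with the aged arrays, so the difference of -1.14 ± 0.72 (SE; unadjusted p of 0.168) rested on young array 2; it was called at -2.26 without young replicate 1 and was -0.01 without young replicate 2. Anln, the actin-binding anillin of the cleavage furrow, was read at 6.88 and 8.13 (aged) against 8.42 and 8.50 (young) (-0.96 ± 0.46; unadjusted p of 0.0846), and was called at -1.59 without aged replicate 2.

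Other genes of the same processes or protein families, and regulators of G2/M promoters, differed less as a whole. Over 7 lists holding 153 measured genes, 22 were called lower (14.4%) and 1 higher, with a median of -0.35. Of these 153 genes, 25 lay under the intron control median on all 4 arrays, as did 2 of the 49 genes. Among all probe sets 3.99% were called lower and 3.36% higher. These lists too were written with earlier results of these data known. Other kinesin heavy chains, which include transport motors and the microtubule-depolymerizing Kif2a (0.71) and Kif2b (-0.08), had a median of -0.08, with Kif3a (-1.04) and Kif26a (-0.80) called lower and Kif21b (0.90) higher, 2 and 1 of 25. The 2 called lower are 8% of this list, too few genes to set apart from the share over all probe sets. In this list 11 of the 25 genes lay under the intron control median on all 4 arrays. Other kinetochore genes had a median of -0.22 and 3 of 26 called lower, namely Cenpt (-2.17), Ska3 (-1.83) and Zw10 (-1.05). Among 21 other checkpoint and anaphase-promoting complex genes 4 were called lower, namely Cdc16 (-1.56), Ube2s (-1.02), Mad1l1 (-0.96) and Bub3 (-0.94), and the median was -0.44. Cohesin and condensin genes had 4 of 19 called lower, with Pds5b (-1.58), Smc4 (-1.41), Smc2 (-1.39) and Rad21 (-0.74), and a median of -0.50.

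Mitotic kinases had 5 of 19 called lower, against 3.99% of all probe sets. These were Nek2 (-3.03), Bub1 and Aurkb (both -2.32), Cdk1 (-2.25) and Pbk (-1.65), and the median of the list was -0.66. Nek2 and Bub1 lay under the intron control median in both aged arrays, so the sizes of their differences are uncertain. Ska3 and Mad1l1, named above, lay under it in aged array 1. Other spindle and cytokinesis genes had 4 of 31 called lower, with Depdc1a (-2.51), Depdc1b (-2.41), Troap (-2.37) and Arhgap11a (-1.45), and a median of -0.30. Of 12 measured genes for regulators of G2/M promoters, none was called by limma and the median was 0.06. A list of this size would hold few calls at the share over all probe sets, so the count does not show that the regulators were level. Foxm1, also on the list, was not analysed here, and Mybl2 lay under the intron control median on all 4 arrays. The NF-Y subunit gene Nfyb had the smallest p of the 12 (-1.13, limma unadjusted p of 0.0833). The MuvB subunit genes Lin9, Lin37, Lin52 and Lin54 lay between -0.48 and 0.51.

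**Figure D5:**
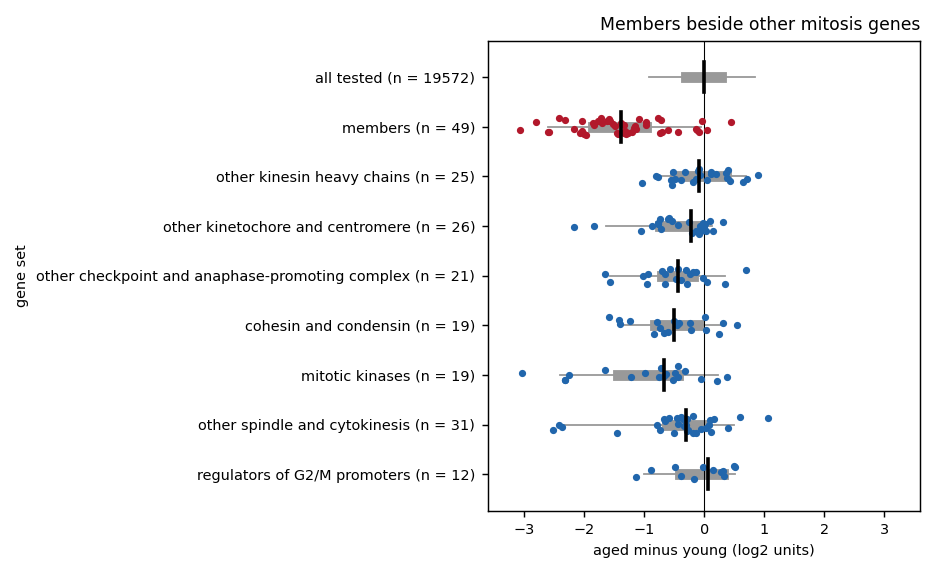
Aged minus young difference in log2 units (x axis) for all tested probe sets, the 49 genes and 7 other lists (y axis). Numbers of genes are in brackets. The lists hold genes of mitosis, kinesins that include transport motors, and regulators of G2/M promoters. Black ticks are medians, thick grey bars the middle 50% and thin bars the middle 90% of values, and points are single genes. The median is -1.38 for the 49 genes and between -0.66 and 0.06 for the other lists.

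Signs of array quality and of other cells differed among the arrays, some with age and some on single arrays. Their part in the differences was not tested except as stated. The chance that an exon control reads above an intron control, taken over all pairs of these control probe sets (exon against intron separation), was 0.792 and 0.819 (aged) against 0.849 and 0.823 (young). With it as a covariate, which left 1 residual degree of freedom, 12 of the 49 genes were called lower against 2.40% of all probe sets, and the median difference was -1.19. Of the listed genes, 21 were below the intron control median in aged array 1, 11 in aged array 2, 5 in young array 1 and 3 in young array 2. Of the 32 called genes, 17 were above it on all 4 arrays and 6 (Cenpf, Ndc80, Nuf2, Kif22, Ckap2 and Ect2) were below it in both aged arrays. The other called genes were below it in aged array 1 only: Fam83d (4.93), Cdc20 (6.57), Kif20a, Kif20b, Cenpn, Spc25, Knl1, Hmmr and Ckap2l. The sizes of the differences are uncertain for the genes of both kinds, and so are the ranks of Fam83d and Cdc20. Cenpf was below the intron control median in young array 2 too. Among genes not called, Kif14 and Kifc1 were below it on all 4 arrays, Sgo2a and Cenpm on 3 and Incenp on 2. Small differences of these genes are uncertain too. In a bulk sample, fewer dividing cells and less RNA of these genes per cell cannot be told apart.

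Satellite cell markers were present on all arrays, with a mean log2 level over 12 genes of 11.92 and 12.31 (aged) against 12.70 and 11.68 (young). Their median difference was -0.11, and the myogenic factor Myod1 (-1.16) was the 1 marker called. For this and the marker lists below, 3.99% of all probe sets were called lower and 3.36% higher. All 10 granulocyte precursor markers had a positive difference and 8 were called higher, with mean levels of 9.44 and 11.82 against 6.65 and 6.01. Ltf and S100a8 overlapped between the ages and were not called. Leukocyte markers had 4 of 10 called higher, with mean levels of 7.46 and 8.18 against 6.91 and 5.90, and blood progenitor and mast cell markers 2 of 10, with 7.78 and 8.10 against 6.82 and 6.71. The 6 erythroid precursor markers measured, none called by limma, had mean levels between 6.05 and 6.54. Myofibre markers stood out in aged array 1 (12.03, against 9.39 to 9.74 on the other arrays) and endothelial markers in young array 2 (9.38, against 6.57 to 7.47), 0 of 12 and 0 of 10 called. Fibro-adipogenic progenitor markers had mean levels of 14.79 and 14.69 against 15.30 and 15.57. Of these 8 genes 2 were called lower, the collagen genes Col1a1 (-3.22) and Col3a1 (-2.10). The others lay between -0.54 (Lum) and 0.64 (Pi16), and the listed Pdgfra and Ly6a were not analysed here. Pericyte and smooth muscle markers had 0 of 10 called (13.55 and 13.11 against 13.59 and 12.60). The array that held the highest myofibre level was thus also the lowest for 39 of the mitotic genes, and the array with the highest endothelial level was the highest for 35. Without young replicate 2 the count of called mitotic genes was 24, against 5.79% of all probe sets, and the median difference was -1.32.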

How the data were processed

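The authors deposited a single matrix of log2 levels, 1 column per array. RMA and the Transcriptome Analysis Console are the tools named, per the submitters' processing notes; versions and the genome build: not given in the sources used here. These deposited log2 values ran from 2.08 to 19.4. Gene symbols came from the platform annotation (19572 with 1 gene symbol, all gene identifiers found in RefSeq GRCm38.p6). Of 28846 entries, 2634 transcript clusters without a symbol and 6640 controls were left out of the test.

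The ages were tested against each other in limma 3.58.1 (R 4.3.3, functions lmFit and eBayes, two-sided, age as the only term, no filter on low levels, 2 residual degrees of freedom per probe set before moderation), fitted on all 19572 probe sets and adjusted by the Benjamini-Hochberg method over them. The threshold was 0.05. The number of arrays limits the precision. Medians over a list are descriptions with no test.

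The genes, their role groups, the pathway and marker lists and the alternatives were chosen with earlier results of these data known. Values on every array were given for the cyclin and proliferation genes and, in each role group, for the 4 largest and the smallest differences; of each pathway list up to 3 called genes with the smallest p were named. Spc25, Cenpa, Pttg1, Espl1, Nfyb, Aurkb, Bub3, Rad21, Cdk1, Depdc1b, Kif2a and Kif2b were added after their values were seen. The alternatives were the replicate number as a block, omission of each array, a covariate for exon against intron separation, 2 other variance priors, centring on the median, repeating the quantile normalization, dropping probe sets under the intron control median and averaging a gene's probe sets. Promoter windows come from RefSeq, build GRCm38.p6.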

Additional observations from a re-analysis of the deposited data

How the results depend on the processing

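The direction of the group was the same under every alternative run: the median difference stayed negative and between -1.07 and -1.78 when an array was left out, and the count of genes past the adjusted threshold stayed at 0. The count of called genes was 20 to 33 without 1 array. By role the called genes then ranged from 2 to 4 for proliferation and cyclin genes, 5 to 10 for kinetochore genes, 5 to 7 for kinesins, 2 to 4 for checkpoint and anaphase genes, 0 to 1 for passenger genes, 4 to 6 for spindle assembly genes and 2 to 3 for cytokinesis genes. Of the 32 called genes, 20 were called with each array left out in turn.

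With a covariate for exon against intron separation 12 genes were called, with 1 proliferation and cyclin, 4 kinetochore, 2 kinesin, 1 checkpoint and anaphase, 1 spindle assembly, 0 passenger and 3 cytokinesis genes (Racgap1 gained a call, at -2.53); this fit has 1 residual degree of freedom. Top2a (0.052), Kif18a (0.13) and Kifc1 (-0.54) then changed sign. With the filter on dim probe sets 40 of the genes were left and 1 cytokinesis gene was called, since Ect2 was filtered out. The number in the labels pairs the arrays by name only (the deviations of same-numbered arrays from their group means correlated at -0.05 across probe sets, which are not independent). With the replicate number as a block 33 genes were called, 1 of them a passenger gene.

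Signs also turned for Kifc1 with a second quantile normalization (-0.015). With single arrays left out, differences ran from -0.48 to 0.56 for Kifc1, -1.25 to 0.043 for Top2a, -0.43 to 0.34 for Sgo2a, -0.54 to 0.39 for Incenp, -1.47 to 0.012 for Cenpm and -0.27 to 0.024 for Espl1, so each crossed zero; the cause was not tested.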
